A study of Drosophila melanogaster with 4 samples.

Results

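The mitochondrial ribosomal protein genes of *Drosophila melanogaster* were followed in the testes of flies with and without the *nsr* gene. Members were the genes whose annotated symbol begins with mRpS or mRpL and a number, each represented by a probe set that the array annotation assigns to that gene alone. Where a gene had several such probe sets, the set with the highest mean over the 4 arrays was taken, and no member was chosen for how it responded. The rule gave 69 of the 11983 genes measured, 25 of the small and 44 of the large subunit by symbol. The gene table lists 73 such genes. *mRpS10* and *mRpL53* lay only on probe sets shared with a neighbouring transcript, and *mRpL34* and *mRpL37* had no probe set under their name in the annotation.

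Mitochondria translate the few proteins encoded by their own genome on a ribosome of their own, the mitoribosome. Its RNAs come from mitochondrial DNA, whereas all of its proteins are encoded in the nucleus, made in the cytosol and imported. A part of these proteins descends from the ribosome of the bacterial ancestor, and the others were added later and have no bacterial counterpart. In fly spermatids the mitochondria fuse into a large body, the Nebenkern, which unfurls along the growing flagellum, and respiratory enzymes made in part on mitoribosomes are built into these mitochondria.

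The samples were testes of males aged 0 to 2 days, with the seminal vesicles taken off at dissection, hybridised to GeneChip *Drosophila* Genome 2.0 arrays. The *nsr* mutant carries a targeted null allele of *nsr* (*CG3875*), a member of the *kep1* family of RNA-binding proteins, in which the sequence from just after the transcription start into the 3′ UTR is removed. The WT flies were a recombinant line that kept the intact gene in the same targeting crosses, so both lines come from the same crosses and heat-shock steps and share that background. Each genotype was hybridised to 2 arrays, from separate RNA extractions, which are called *nsr* mutant 1 and 2 and WT 1 and 2. Nothing in the labels says that the extractions came from separate groups of flies, so p-values speak only of the scatter among these samples, and that scatter may be technical. Each genotype is 1 targeted line, and a difference between the lines cannot be told apart from an effect of *nsr*. As these are whole testes, fewer cells of a type and less RNA per cell cannot be told apart.

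Every probe set has 1 linear intensity on each array, used as deposited. The test was that of limma on log2(intensity + 16), so that a log2 fold change is the mutant mean minus the WT mean on that scale and understates the change of a dim gene, and p-values were adjusted over all 18769 probe sets. Array medians were 12.1 and 14.1 in the mutant and 13.5 and 15.7 in WT. The highest of 67 negative control probe sets reached between 5.88 and 8.92, and 9743 probe sets exceeded it on all 4 arrays. The *nsr* probe set itself fell from 549 and 554 in WT to 23.2 and 27.6 in the mutant, a log2 fold change of -3.78 (standard error 0.10, adjusted p = 0.00837 from limma). No other probe set passed an adjusted p of 0.05, so that the calls were 0.00533% of those tested.

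The labelled tissue was checked against marker genes. All 10 measured germline markers, among them the protamines *ProtA* and *ProtB* and the sperm tail gene *Mst87F*, were above the negative controls on every array, with a summed intensity of 11502 and 12649 in the mutant and 12444 and 13259 in WT. Of the 4 measured somatic markers, 1 exceeded the negative controls on all 4 arrays, while *tj* (cyst cells) and *upd1* (hub) did so on none. The list summed to 137 and 87.2 in the mutant and 134 and 128 in WT. Its highest reading alone was 125 and 77.7 in the mutant and 114 and 120 in WT. Accessory gland genes exceeded the controls on all 4 arrays for 2 of 9, *Acp26Aa* on none, and summed to 448 and 577 against 442 and 494. Ejaculatory duct and bulb genes (4 measured) summed to 735 and 848 against 917 and 982, and fat body genes (4 measured) to 751 and 965 against 761 and 1017. The 4 measured muscle genes summed to 174 and 166 in the mutant and 112 and 125 in WT. This was carried by *Act88F*, the flight muscle actin, at 77.6 and 56.1 against 36.2 and 26.8, and *fln* (flightin), at 30.1 and 28.2 against 13.8 and 16.9. In the ejaculatory list the highest reading alone was 688 and 773 in the mutant and 823 and 939 in WT. It was 670 and 891 against 707 and 921 for fat body, and 350 and 424 against 345 and 378 for the accessory gland. The sums of the muscle and ejaculatory lists did not overlap between genotypes. Of the muscle genes 2 of 4 were separated upward, and of the ejaculatory genes 1 of 4 downward. Over all probe sets 10.2% were separated upward and 24.9% downward. The part of these tissues in the values of the mitoribosome genes was not tested.

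Mitoribosome genes were expressed throughout: all 69 exceeded the negative controls on all 4 arrays, so that none was lost to a filter on low values. Their intensities ran from 51.7 to 756 on *nsr* mutant 1, from 59.8 to 887 on *nsr* mutant 2, from 62.9 to 672 on WT 1 and from 69.7 to 785 on WT 2. No member passed the test (0 of 69, smallest adjusted p = 0.699 from limma), beside 0.00533% of all probe sets. A single member, *mRpL42*, had an unadjusted p under 0.05, where 7.13% of all probe sets did, 1.27% upward as this gene and 5.86% downward. The log2 fold changes lay between -0.25 and 0.24, with a median of 0.06 and quartiles of -0.01 and 0.10. For 36 of the 69 members the fold change was smaller than the difference between replicates in both genotypes. The same held for 7824 of all 18769 probe sets and for 3626 of the 8212 genes above the negative controls on all 4 arrays.

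The members lay a little to the mutant side of the other genes. Their median log2 fold change of 0.06 compared with -0.04 over all probe sets and -0.08 over the 8212 genes above the negative controls on all 4 arrays. The value was above 0 for 49 members (71.0%), against 37.4% of all probe sets and 32.0% of those above the negative controls. Both mutant arrays exceeded both WT arrays for 16 members (23.2%), where 10.2% of all probe sets and 7.86% of those above the negative controls did so. The opposite order, both mutant arrays under both WT arrays, was seen for 1 member, *mRpL38* (1.45%), where 24.9% and 27.7% did so. The genotypes overlapped for the other 52. These are counts and medians over chosen genes and carry no test. With 2 arrays against 2 the smallest two-sided p of an exact permutation test is 0.333.

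**Figure D1:**
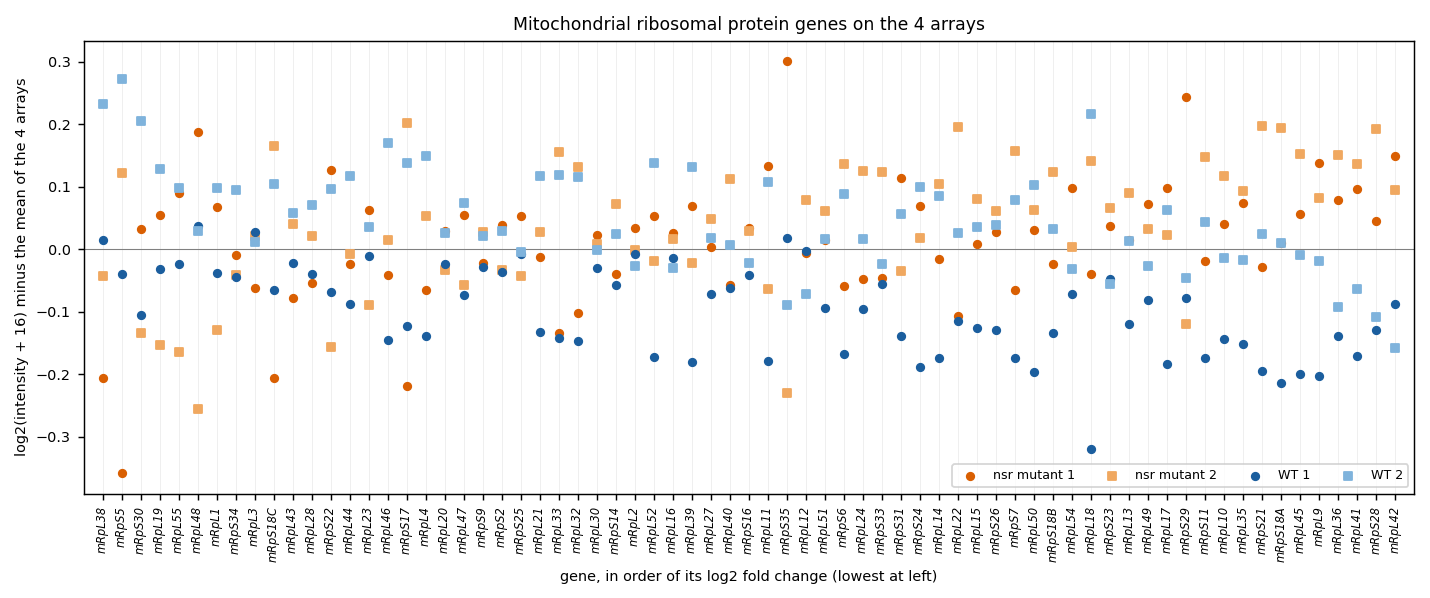
Each of the 69 mitochondrial ribosomal protein genes on the 4 arrays, as log2(intensity + 16) minus the gene's mean over the arrays, with genes ordered along the horizontal axis from the lowest log2 fold change (*mRpL38*, -0.25) to the highest (*mRpL42*, 0.24). Orange points are the *nsr* mutant arrays and blue points the WT arrays, and WT 1 (dark blue circles) is the lowest of the 4 for 46 genes.

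**Figure D2:**
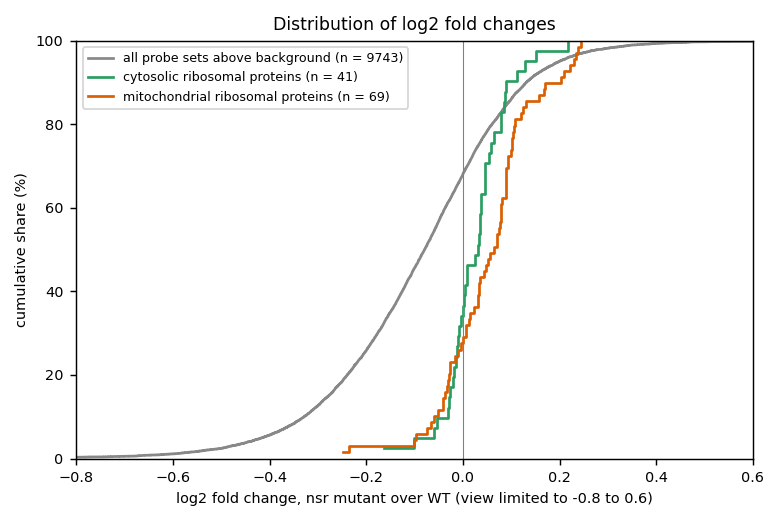
Cumulative share of genes or probe sets (vertical axis, %) up to a given log2 fold change, *nsr* mutant over WT (horizontal axis, view limited). The curve of the 69 mitochondrial ribosomal proteins (median 0.06) and that of 41 cytosolic ribosomal proteins (median 0.03) lie to the right of and are steeper than that of the 9743 probe sets above background (median -0.08).

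In the small subunit, which holds the messenger RNA and the decoding site, the median was 0.08, with 19 of 25 values above 0. The highest of this subunit was *mRpS28*, whose counterpart in mammals is related to part of the bacterial S1 protein. It read 122 and 136 in the mutant and 106 and 108 in WT. Both mutant values were above both WT values, a log2 fold change of 0.24 (standard error 0.10, adjusted p = 0.718 from limma). *mRpS16* (522 and 520.0 against 494 and 501) and *mRpS23* (172 and 176 against 161 and 160.4) were the other small-subunit genes with separated genotypes, at 0.06 and 0.10. The subunit thus had 3 of 25 genes separated upward (12%) and 0 downward, beside 7.86% and 27.7% of the probe sets above the negative controls.

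At the low end stood *mRpS5*, a homolog of the bacterial protein that lines the entry of the messenger RNA channel. It read 317 and 449 in the mutant and 399 and 499.8 in WT. The lowest reading was *nsr* mutant 1 while *nsr* mutant 2 fell between the WT arrays, and the log2 fold change of -0.23 had a standard error of 0.21 (adjusted p = 0.860 from limma). Without *nsr* mutant 1 it was 0.01.

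*mRpS30* bears a small-subunit name, although its mammalian counterpart sits in the large subunit. It read 94.6 and 82.5 in the mutant and 84.5 and 109 in WT, and the genotypes overlapped (log2 fold change -0.10, standard error 0.14). *mRpS29* is the counterpart of the mammalian GTP-binding protein DAP3. It read 123 and 92.1 against 95.2 and 97.7, so that 1 mutant array was the highest of the 4 and the other the lowest, with a log2 fold change of 0.12 (standard error 0.15). It overlaps *qkr58E-2*, a relative of *kep1*, in the gene table. *qkr58E-2* read 30.7 and 44.1 against 42.7 and 39.3, also overlapping.

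The fly has 3 paralogs of the bacterial S18 protein, and they were all detected. *mRpS18A* read 532 and 606 in the mutant and 453 and 532 in WT, a log2 fold change of 0.20 (standard error 0.13). *mRpS18B* read 313 and 349 against 289 and 327 (0.10, standard error 0.11), on a probe set whose suffix marks probes that can match more than 1 transcript. *mRpS18C* read 234 and 307 against 259 and 294 (-0.04, standard error 0.16). In each of them the second array of a genotype was the brighter one and the genotypes overlapped or touched, and none passed the test (adjusted p from 0.794 to 0.994 from limma).

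In the large subunit, which joins the amino acids and carries the exit tunnel, the median was 0.05, with 30 of 44 values above 0. Both mutant arrays were above both WT arrays for 13 of them (29.5%) and below for 1 (2.27%), beside 7.86% and 27.7% of the probe sets above the negative controls. The highest of all members was *mRpL42*, a protein without a bacterial counterpart. It read 299.6 and 288 in the mutant and 252 and 239 in WT. All mutant readings were higher than all WT readings, by 1.20-fold in the group means (294 ± 8.05 against 246 ± 8.999, SD, n = 2 each), and the log2 fold change was 0.24 with a standard error of 0.09. Its unadjusted p was 0.0492 and its adjusted p 0.699 from limma.

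Next in the large subunit came *mRpL41*, another protein that bacteria lack, and *mRpL36*, the homolog of a very small zinc-binding protein of the bacterial large subunit. *mRpL41* read 170.4 and 176 in the mutant and 139 and 151 in WT. *mRpL36* read 626 and 659 in the mutant and 536 and 554 in WT. Both genes had a log2 fold change of 0.23 (standard errors 0.10 and 0.09, adjusted p = 0.711 and 0.705 from limma) with separated genotypes.

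*mRpL9*, whose bacterial homolog reaches out from the base of the L1 stalk, read 119 and 114 against 90.5 and 105 (0.22, standard error 0.11). *mRpL45*, which in mammals lies at the tunnel exit and holds the mitoribosome to the inner membrane, read 116 and 126 against 94.9 and 111 (0.21, standard error 0.11). Both kept the mutant arrays above the WT arrays, and in both WT 1 was the lowest. The remaining large-subunit genes of this pattern were *mRpL2*, *mRpL10*, *mRpL13*, *mRpL16*, *mRpL30*, *mRpL35*, *mRpL49* and *mRpL54*, with log2 fold changes from 0.03 to 0.17. *mRpL2*, the homolog of a protein close to the catalytic centre of the bacterial ribosome, read 245 and 239 against 238 and 234, an example of how small a separated difference could be.

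*mRpL38*, a protein without a bacterial counterpart that resembles phosphatidylethanolamine-binding proteins, was the lowest of all members and the only one with both mutant arrays below both WT arrays. It read 51.7 and 59.8 in the mutant and 62.9 and 75.7 in WT. The group means were 55.8 ± 5.74 and 69.3 ± 9.05 (SD, n = 2 each). This is a log2 fold change of -0.25 with a standard error of 0.13 (adjusted p = 0.745 from limma).

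The other low large-subunit genes overlapped between genotypes. *mRpL19*, whose bacterial homolog lies at the contact between the subunits, read 234 and 200.3 against 219.5 and 247 (-0.10, standard error 0.12). *mRpL55*, which flies need to survive, read 132 and 108 against 121 and 133 (-0.07, standard error 0.13). *mRpL48*, a protein that bacteria lack, read 111 and 77.7 against 98.7 and 98.1 (-0.07, standard error 0.17). In all 3 genes *nsr* mutant 2 gave the lowest reading, and *mRpL48* had its highest reading on the other mutant array.

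*mRpL12* forms the flexible stalk that recruits translation factors. It read 363 and 386 in the mutant and 364 and 346 in WT, and WT 1 and *nsr* mutant 1 were almost level (log2 fold change 0.07, standard error 0.10). A further pair of mitoribosome genes carries older fly names and so falls outside the symbol rule. *tko* (*technical knockout*), the S12 homolog whose mutants are seizure-prone, read 172 and 189.9 against 171 and 177, and *bonsai*, the S15 homolog, read 412 and 415 against 395 and 414. Both overlapped between genotypes, with log2 fold changes of 0.05 and 0.03.

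**Figure D3:**
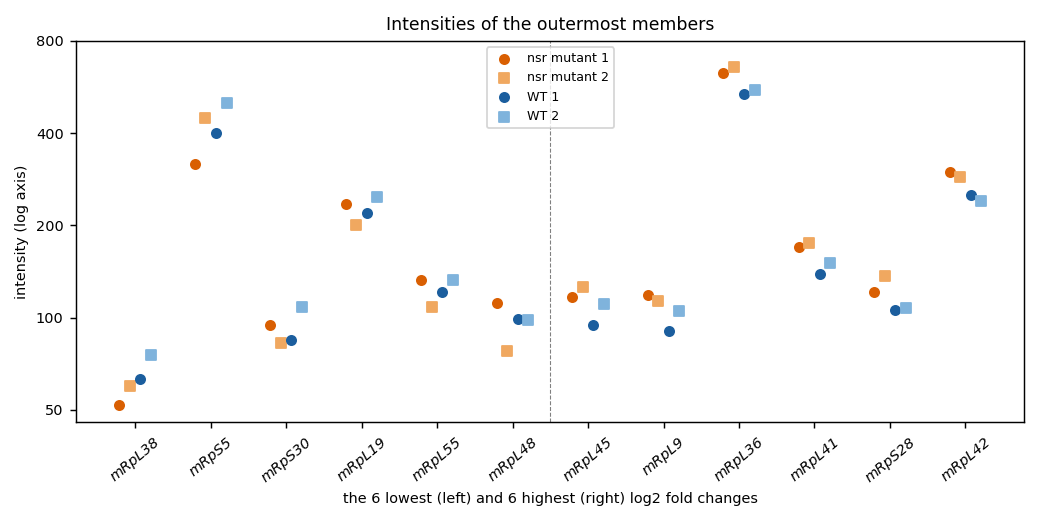
Intensity (vertical axis, log scale) of the 6 mitochondrial ribosomal protein genes with the lowest and the 6 with the highest log2 fold change on each of the 4 arrays. Left of the dashed line, *mRpL38* alone has both mutant arrays (orange) below both WT arrays (blue). Right of it all 6 genes, picked for their high fold change, have both mutant arrays above both WT arrays. Of all 69 members 16 were separated upward (23.2%) and 1 downward (1.45%), beside 7.86% and 27.7% of the probe sets above the negative controls.

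The members were also set apart by descent, which the rule did not use. The 44 members with a bacterial homolog had a median log2 fold change of 0.06 and the 25 without one 0.07. Both mutant arrays were above both WT arrays for 10 and 6 of them (22.7% and 24.0%, beside 7.86% of the probe sets above the negative controls), and below for 0 and 1. Against the WT mean, *nsr* mutant 1 and 2 had medians of 0.03 and 0.10 over the members with a homolog and of 0.08 and 0.01 over those without. This split was made after the values had been seen, and the difference between the classes was not tested. *mRpL47* and *mRpS11* were the only members with a further probe set of their own, at log2 fold changes of 0.02 beside 0.00 and of 0.05 beside 0.13, and in all of these sets the genotypes overlapped. The probe set that *mRpS10* shares with *CG34316* read 399 and 479.6 against 394 and 422, and that of *mRpL53* and *CG33155* read 361 and 369 against 359 and 387. In both shared sets the genotypes overlapped.

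How far the members lay from 0 depended on how the arrays were put on a common scale. With array medians centred, quantile normalization or loess, the members' median was 0.14, 0.16 and 0.15, while that of genes above the negative controls was -0.01, 0.01 and 0.00. The gap between the members and those genes was 0.14 as deposited and between 0.14 and 0.15 under these scalings. The number of members with both mutant arrays above both WT arrays was then 36, 37 and 35. The same held for 21.2%, 25.3% and 24.0% of the probe sets above the negative controls, beside 52.2%, 53.6% and 50.7% of the members. The members with both mutant arrays below both WT arrays numbered 1 under each scaling, and no member was called under any of them (smallest adjusted p 0.386, 0.404 and 0.403 from limma).

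Single arrays also decided the sign. WT 1 gave the lowest of the 4 readings for 46 members (66.7%), against 31.1% of genes above the negative controls. The highest reading was on *nsr* mutant 2 for 30 members (43.5%), on *nsr* mutant 1 and WT 2 for 19 each (27.5%) and on WT 1 for 1 (1.45%). Over genes above the negative controls these shares were 26.4% on *nsr* mutant 2, 6.44% on *nsr* mutant 1, 60.0% on WT 2 and 7.16% on WT 1. Set against WT 1, *nsr* mutant 1 was higher for 61 members (median log2 difference 0.11) and *nsr* mutant 2 for 56 (0.16). Over genes above the negative controls these medians were -0.06 and 0.07. Set against WT 2, the mutant arrays were higher for 28 (-0.02) and 39 (0.02) members, beside medians of -0.23 and -0.10 over those genes. The WT arrays themselves differed by a median of -0.14 (WT 1 minus WT 2), with WT 1 the higher for 8 members, and the mutant arrays by -0.04 (mutant 1 minus mutant 2). Over genes above the negative controls these medians were -0.18 and -0.15, and WT 1 was the higher for 1059 of 8212. The gap between the WT arrays was thus not particular to the members. Without WT 1 the members' median was -0.02 and without WT 2 it was 0.13, with 17 and 50 members separated upward (24.6% and 72.5%) and 19 and 2 downward (27.5% and 2.90%). Of the probe sets above the negative controls, 10.0% and 32.7% were then separated upward and 64.05% and 30.5% downward. Without *nsr* mutant 1 it was 0.08 and without *nsr* mutant 2 it was 0.05, with 38 and 27 separated upward (55.1% and 39.1%) and 12 and 7 downward (17.4% and 10.1%), beside 29.0% and 11.99% upward and 34.0% and 58.9% downward of those probe sets. The median of genes above the negative controls was then -0.17, 0.01, -0.01 and -0.15 in the same order, so that the members lay above it by 0.09 to 0.19 in all 4 cases.

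**Figure D4:**
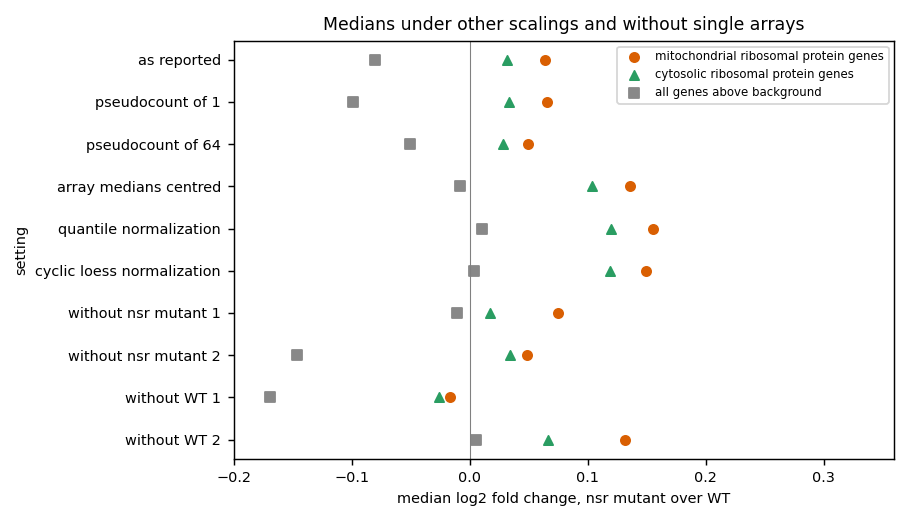
Median log2 fold change, *nsr* mutant over WT (horizontal axis), of the mitochondrial ribosomal proteins, the cytosolic ribosomal proteins and all genes above background, under each scaling, pseudocount or left-out array (vertical axis). The orange points lie right of the grey squares in every line shown, by 0.09 to 0.19 log2 units, but cross 0 when WT 1 is left out (-0.02).

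Most members are short genes. In the gene table, which follows release 6 of the genome, the median span of a member was 909 bases, with a range from 468 to 13391, against 2241 bases over the genes above the negative controls, 99.5% of which had a span. With those genes cut by span into 4 equal classes, from the shortest to the longest, the median log2 fold change was -0.01, -0.06, -0.11 and -0.15, and 56, 10, 1 and 2 members fell in each. The members' own median in these classes was 0.08, -0.01, -0.10 and -0.11, so that it was lower in the longer classes too. The array's own controls with probes toward both ends of a transcript also differed. The 5′ to 3′ signal ratio of *Act5C* was 0.229 and 0.227 in the mutant and 0.297 and 0.264 in WT, and that of the other actin control 0.745 and 0.687 against 0.823 and 0.783. Both ratios were lower on both mutant arrays, while those of the GAPDH and eIF-4a controls overlapped. The part of gene length and of RNA quality in the members' values was not tested. Of the 69 members, 41 overlap another gene in the same table, and none lies next to another member.

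Other genes of the same pathway showed the same absence of calls, and none of the lists had a called gene. The median over the 8212 genes above the negative controls on all 4 arrays, beside which the list medians stand, was -0.08. The 8 measured translation factors of the mitochondrion had a median of -0.11, with 0 separated upward and 3 of 8 downward (37.5%). Of the probe sets above the negative controls, as all 8 were, 7.86% and 27.7% were so separated. The lowest was *mRRF2*, the factor that splits the mitoribosome after termination, which read 107 and 111 in the mutant and 139 and 181 in WT. Both mutant readings were lower, at a log2 fold change of -0.49 (standard error 0.14, adjusted p = 0.690 from limma). *mRRF1*, the ribosome recycling factor, read 37.8 and 43.9 against 44.6 and 58.9 (-0.25), and *mEFTu2*, an elongation factor that delivers transfer RNAs, 708 and 762 against 784 and 946 (-0.23).

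The 15 measured mitochondrial aminoacyl-tRNA synthetases, which load amino acids onto transfer RNAs, had a median of -0.10, with 1 separated upward (6.67%) and 3 downward (20.0%), close to the 10.2% and 24.9% of all probe sets. *CysRS-m* read 910.2 and 1121 against 1179 and 1373 (-0.33), *SerRS-m* 87.8 and 88.7 against 66.3 and 80.2 (0.23) and *TrpRS-m* 743 and 1010.0 against 925 and 1274 (-0.32). Among these, *TrpRS-m* overlapped between genotypes. The 10 measured genes of mitochondrial DNA upkeep and transcription had a median of -0.04. *mTTF*, a transcription termination factor, read 49.8 and 62.01 against 40.6 and 46.2 (0.27), *mtSSB*, which binds single-stranded DNA, 78.0 and 88.3 against 89.8 and 95.9 (-0.14), and *mtTFB2*, a transcription factor, 34.7 and 32.7 against 34.6 and 44.5 (-0.16).

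The 20 measured import genes had a median of -0.11. *ttm2* read 1628 and 1906 against 1877 and 2173 (-0.20) and *ttm50* 64.3 and 72.7 against 71.6 and 84.3 (-0.15). *Tim17a2* was not above the negative controls on any array. The 69 measured nuclear subunits of oxidative phosphorylation, which work with the products of the mitoribosome, had a median of 0.04, with 13 separated upward (18.8%) and 11 downward (15.9%), beside 7.86% and 27.7% of the probe sets above the negative controls. *COX6AL2* and *COX6AL*, versions of a cytochrome c oxidase subunit, read 287 and 390.1 against 482 and 538 (-0.58, adjusted p = 0.690 from limma) and 1157 and 1299 against 1379 and 1497 (-0.23), and *ND-B12*, a subunit of complex I, 63.2 and 82.5 against 85.4 and 98.3 (-0.29). All 3 were lower on both mutant arrays.

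The 41 measured cytosolic ribosomal proteins, of 92 listed, stood close to the members, with a median of 0.03. Of them 8 were separated upward (19.5%) and 3 downward (7.32%), beside the same 7.86% and 27.7%. *RpL37-2* read 829 and 821 against 656 and 761 (0.22), *RpL24-like*, which acts in the assembly of the large subunit, 496 and 519.7 against 431 and 482 (0.15), and *RpL3* 806 and 753 against 850.3 and 900.1 (-0.16). Each of these was separated between genotypes, and the members and the cytosolic proteins were measured on the same arrays, so the medians share whatever moved single arrays. The difference between any of these lists and the members was not tested.

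**Figure D5:**
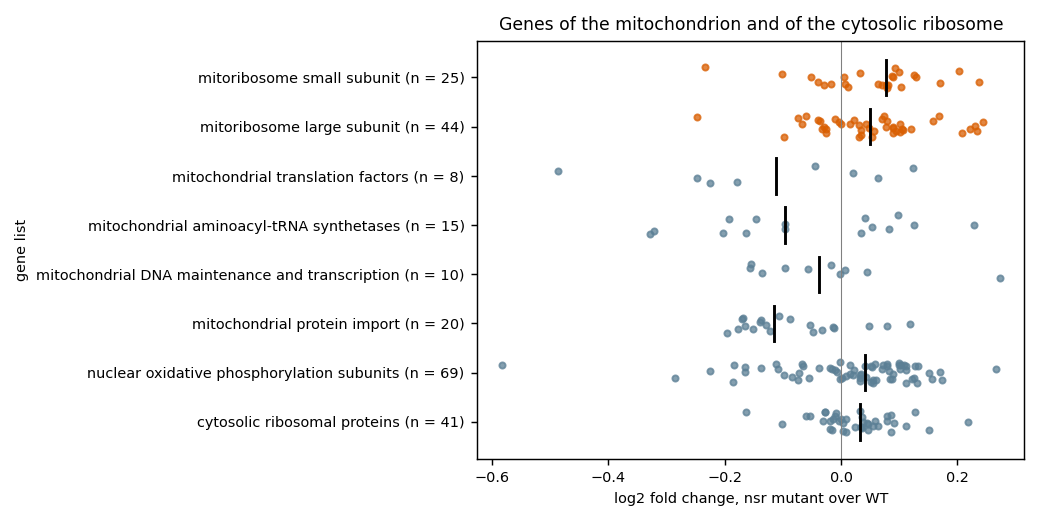
Log2 fold change, *nsr* mutant over WT (horizontal axis), of each measured gene, by list (vertical axis), with the median as a black bar and the mitoribosome subunits in orange. The medians of the small (0.08) and large (0.05) subunit lie to the right of 0, as do those of the oxidative phosphorylation subunits (0.04) and the cytosolic ribosomal proteins (0.03). Those of the other mitochondrial lists lie between -0.11 and -0.04, around the median of -0.08 over the genes above the negative controls.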

How the data were processed

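Transcription in testes of 2 genotypes was measured on 4 GeneChip *Drosophila* Genome 2.0 arrays. The authors deposited a linear intensity for every probe set on every array. For the combining of probes, background correction and scaling, the method is not stated in the sources used here. The sample labels name MessageAmp II-Biotin labelling, and the paper's methods One-Cycle labelling. Probe sets were named through the array annotation, and symbols were updated through a gene table of genome release 6, in which 13544 of 13647 single-gene probe sets had their ID. Another 402 probe sets carry several genes and 4720 none, and neither kind was used to name a gene. The 183 control probe sets were left out of 18952.

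The comparison used limma 3.58.1 (lmFit, eBayes) under R 4.3.3, on log2(intensity + 16), two-sided, with Benjamini-Hochberg adjustment and calls at an adjusted p under 0.05. SAM, which the methods name, was not run. The fit was tested on simulated data with known changes. Python 3.11.15 with pandas 2.3.3, numpy 2.4.6 and matplotlib 3.10.9 made the tables and figures. The number of arrays limits the precision. Above background means brighter than every negative control on the same array.

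Members, gene lists and tests were chosen with earlier results of these data known. The genes named are the 6 members with the lowest and the 6 with the highest log2 fold change, the *mRpS18* paralogs, *tko*, *bonsai*, *mRpL12*, *mRpL55*, *mRpS29*, *mRpS5*, up to 3 genes per other list with the smallest p, and *nsr*. Every other gene named, the split by bacterial homologs, gene span and 5′ to 3′ ratios were chosen after the values were seen. No sequence is printed, and the planned description of promoters and proteins was not run here. Alternatives were pseudocounts of 1 and 64, centred medians, quantile and cyclic loess normalization, a filter at the median level, an intensity trend in the prior, an unmoderated test, a replicate block, all probe sets of a gene and leaving out each array. No pseudocount and a filter at the negative controls were added after seeing the data.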

Additional observations from a re-analysis of the deposited data

How the results depend on the processing

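No mitoribosome gene was called under any of the 16 alternatives. With array medians centred 7 members had an unadjusted p under 0.05 in limma, after quantile normalization and loess 10 each, and in the unmoderated test 5. The share of all probe sets under 0.05 was not taken in these settings, so these counts cannot be read as particular to the members. Calls over all probe sets did change. They numbered 1 as reported, 111 with array medians centred (37 higher and 74 lower in the mutant, against 0 and 1), 122 without probe sets below the median level, 117 without those not above the negative controls, 3 after quantile normalization (1 higher and 2 lower), 2 after loess, and 0 with a pseudocount of 1, without a pseudocount, in the unmoderated test and without any single array. *nsr* itself stayed between -3.70 and -3.85 on leaving out an array, and was -4.39 with a pseudocount of 1, -4.45 without one and -3.78 in the unmoderated test, but lost its call in each of these (adjusted p from limma 0.346 with a pseudocount of 1).

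The replicate numbers were not taken to pair the arrays, since nothing in the labels ties them. The deviations of same-numbered arrays correlated at 0.150 over all probe sets. That value cannot decide on pairing, as a correlation does not see a shift of a whole array. The first array had the lower median in both genotypes (12.1 and 14.1 in the mutant, 13.5 and 15.7 in WT). With the replicate block 2 probe sets were called and 0 members, and the members' median was unchanged.

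With array medians centred, quantile normalization and loess, in that order, the medians of the cytosolic ribosomal proteins were 0.10, 0.12 and 0.12, and of *tko* and *bonsai* 0.11, 0.13 and 0.12. Members separated upward numbered 36, 37 and 35, of the large subunit 23, 24 and 22, and of the small subunit 13 each. Of the probe sets above the negative controls, 21.2%, 25.3% and 24.0% were then separated upward, against 7.86% as deposited. After quantile normalization the median was 0.16 for all members, 0.17 for the small subunit, 0.14 for oxidative phosphorylation and 0.0012 for translation factors. *mRpL48* turned to 0.0053, 0.030 and 0.016 and *mRpS18C* to 0.032, 0.036 and 0.040. *mRpL55* turned to 0.023 and 0.0044 after quantile normalization and loess, and *mRpS30* to 9.1e-05 after quantile normalization. The cause was not tested.

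Leaving out 1 array at a time, members separated upward ranged from 17 to 50 (large subunit 14 to 33, small subunit 3 to 17) and downward from 2 to 19 (large 2 to 15, small 0 to 5), while 10.0% to 32.7% of probe sets above the negative controls were separated upward and 30.5% to 64.05% downward. The median ranged from -0.017 to 0.13 for all members, -0.0078 to 0.10 for the small subunit and -0.026 to 0.066 for cytosolic ribosomal proteins. The log2 fold change of single genes changed sign within these ranges: *mRpL19* -0.20 to 0.0066, *mRpL48* -0.29 to 0.16, *mRpL55* -0.20 to 0.052, *mRpS5* -0.48 to 0.0057, *mRpS18C* -0.23 to 0.15, *mRpS29* -0.057 to 0.31, *mRpS30* -0.26 to 0.055, *tko* -0.012 to 0.12 and *bonsai* -0.0024 to 0.065. With 2 arrays a genotype, the array left alone is assumed to vary like the other genotype. Signal over background does not limit the members, which all exceeded the negative controls, but the spread between arrays does.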
